A study of Homo sapiens with 6 samples.

Results

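The genes described here are the 10 that encode the peptide loading and peptide cutting machinery of the MHC class I pathway: TAP1 and TAP2 (the peptide transporter), TAPBP and TAPBPL (tapasin and its homologue), PSMB8, PSMB9 and PSMB10 (the catalytic subunits of the immunoproteasome), PSME1 and PSME2 (the PA28 proteasome activator) and ERAP1 (an aminopeptidase of the endoplasmic reticulum). They were found by symbol, and all 10 were among the 20667 gene symbols listed in each library. The RNA-seq experiment was done in U2932, a single human cell line established from a diffuse large B-cell lymphoma of the activated B-cell type (ABC-DLBCL). The cells carried, after stable lentiviral infection, either an shRNA against the kinase ROCK2 (ROCK2 KD, 3 libraries) or a scrambled shRNA (Scr shRNA, 3 libraries), and each group held a replicate 1, a replicate 2 and a replicate 3. The comparison asks how the RNA of these genes differed when ROCK2 was lowered. No source used here says whether the replicates were separate infections or cultures, so the p-values measure the spread between these libraries only.

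In the MHC class I pathway, the proteasome cuts proteins of the cytosol into peptides. In lymphoid cells and in cells exposed to interferon-gamma, PSMB8, PSMB9 and PSMB10 take the place of the constitutive catalytic subunits PSMB5, PSMB6 and PSMB7, and PA28 can cap the particle in place of the regulatory particle. The TAP1-TAP2 heterodimer pumps the peptides into the endoplasmic reticulum, where ERAP1 trims them, tapasin bridges the transporter to empty class I molecules and selects for tightly bound peptides, and TAPBPL edits peptides outside the loading complex. Many of these genes are classical targets of interferon-gamma through IRF1 and NLRC5.

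The genes fall into a cluster in the MHC region and a set spread over other chromosomes (GRCh37, whole gene spans in the annotation). TAP2 (chr6:32789610-32806516, minus strand), PSMB8 (chr6:32808494-32812456, minus strand), TAP1 (chr6:32812986-32821593, minus strand) and PSMB9 (chr6:32811913-32827628, plus strand) are neighbours in the class II part of the MHC, and TAPBP (chr6:33267471-33282061, minus strand) lies further along the same arm. TAPBPL is on chromosome 12 (6560856-6575683, plus strand), PSMB10 on chromosome 16 (67968409-67970767, minus strand), PSME1 (24605372-24608176, plus strand) and PSME2 (24612571-24616779, minus strand) next to each other on chromosome 14, and ERAP1 on chromosome 5 (96096514-96143803, minus strand). The annotated span of PSMB9 overlaps TAP1 and PSMB8 on the opposite strand. Counting by strand is not stated, so reads from the shared stretch cannot be assigned to a gene with certainty. PSME2 has 6 annotated pseudogenes, which could share reads with it.

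The promoters of TAP1 and PSMB9 are printed in full because the genes start head to head, with RefSeq start sites 488 bases apart, and because TAP1 showed the largest difference of the 10 between the groups. Each window runs from 250 bases before to 50 bases after a start site (RefSeq, GRCh38.p14), is written 5′ to 3′ in the direction of the gene, and matched chromosome 6 of GRCh37 exactly once. In GRCh37 the TAP1 window is chr6:32821432-32821731 (minus strand) and the PSMB9 window chr6:32821719-32822018 (plus strand), and they share 13 bases. Capitals mark matches, on either strand, to the interferon response element core (GAAA, any 2 bases, GAAA), the ETS-IRF composite (GGAA, any 2 bases, GAAA), the STAT element TTCNNNGAA or the NF-kB element (GGG, any 5 bases, CC). Neighbouring matches can run into each other.
TAP1: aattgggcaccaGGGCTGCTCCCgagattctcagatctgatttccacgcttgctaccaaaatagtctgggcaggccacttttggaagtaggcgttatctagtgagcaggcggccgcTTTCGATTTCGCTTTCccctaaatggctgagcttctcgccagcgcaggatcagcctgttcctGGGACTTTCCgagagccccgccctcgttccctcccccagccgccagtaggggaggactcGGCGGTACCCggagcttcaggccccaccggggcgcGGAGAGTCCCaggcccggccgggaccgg
PSMB9: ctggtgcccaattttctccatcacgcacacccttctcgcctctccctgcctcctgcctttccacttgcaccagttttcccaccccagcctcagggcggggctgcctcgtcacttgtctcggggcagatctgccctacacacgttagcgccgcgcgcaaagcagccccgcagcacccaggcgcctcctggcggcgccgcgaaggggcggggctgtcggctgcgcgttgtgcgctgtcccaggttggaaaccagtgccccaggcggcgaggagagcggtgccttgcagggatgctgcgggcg

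The TAP1 window held 2 overlapping matches to the interferon response element core and 5 to the NF-kB pattern. The PSMB9 window held 0 matches to any of the 4 patterns, which says only that these letters are not in these 300 bases. The interferon response element matches of the TAP1 window lie between the start sites of TAP1 and PSMB9, beyond the PSMB9 window. Over all 14 windows of the 10 genes, the interferon response element core was found in 8, which belonged to 8 of the 10 genes (all but TAPBPL and PSMB9), and it was found in 3.57% of all 35116 windows. The ETS-IRF composite was found for PSMB8 and TAP2 (2.82% of all windows), where it shared bases with the former motif, and TTCNNNGAA for PSMB8 and for a second TAP1 window (7.66% of all windows). The NF-kB pattern was found in 8 windows of 7 genes, but also in 58.7% of all windows. The sites of the genes other than TAP1 are shown side by side because they share nearly the same core, with the match in capitals and 10 bases on each side, read on the strand that begins the core with GAAA.
TAP2: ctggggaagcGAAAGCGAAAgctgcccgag
TAPBP: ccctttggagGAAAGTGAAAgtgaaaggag
PSMB8: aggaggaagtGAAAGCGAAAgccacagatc
PSMB10: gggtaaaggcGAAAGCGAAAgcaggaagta
PSME1: accgcgaaggGAAAGCGAAAgcggtagggc
PSME2: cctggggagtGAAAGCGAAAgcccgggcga
ERAP1: ccccaggaccGAAAGTGAAAgtggagcccg
The positions of these 30-base sites in GRCh37 are chr6:32806555-32806584 (minus strand) for TAP2, chr6:33281856-33281885 (minus strand) for TAPBP, chr6:32811809-32811838 (plus strand) for PSMB8, chr16:67970755-67970784 (minus strand) for PSMB10, chr14:24605398-24605427 (minus strand) for PSME1, chr14:24615828-24615857 (minus strand) for PSME2 and chr5:96143627-96143656 (plus strand) for ERAP1. The window of TAPBP, like that of TAP1, held 2 overlapping matches, of which the site above is 1. A match is a description of the letters and not evidence of a bound factor.

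The values were FPKM as deposited, which are fragments mapped to a gene, relative to its transcript length and to the mapped fragments of the library. They summed to between 208289 and 480612 per library, with replicate 1 lowest in both groups. Relative depth was estimated indirectly, from the most common ratio between values under 0.05 FPKM in a library and in Scr shRNA replicate 3. With Scr shRNA replicate 3 set to 100%, the lowest estimate was 64.9%, in ROCK2 KD replicate 1. The methods of the study state only an approximate depth for the libraries as a whole, and the number of reads behind each FPKM was not used here, so no counting interval is given. ROCK2 was at 2.75, 5.35 and 1.26 FPKM in the ROCK2 KD libraries of replicates 1, 2 and 3, and at 4.32, 7.21 and 5.78 FPKM in the Scr shRNA libraries, lower in every pair and most in replicate 3. In limma its log2 fold change was -0.81 (SE 0.22, adjusted p = 0.7929), or -0.43 without replicate 3, against 0.00 for ROCK1. All 5 B-cell markers examined exceeded 1 FPKM in at least 1 library, while the T-cell, myeloid and NK-cell markers were below 1 FPKM in all libraries. EPCAM, at 2.59 to 5.00 FPKM, was the only epithelial marker above 1 FPKM, and KRT8 and KRT18 were at or near 0.

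Replicate 3 stood apart in the MHC region, and this touches the 5 MHC members. In the ROCK2 KD and Scr shRNA libraries of replicate 3, 105 and 108 of the 201 MHC genes listed (28 to 34 Mb of chromosome 6) had FPKM written with more than 6 significant digits, against 1 to 4 in the other 4 libraries. Multiplied by a small whole number, called the divisor here, these values became numbers of at most 6 significant digits, the form that an average over that many entries of a symbol would have. The exceptions were TNXB, HLA-L and the complement gene C4A (named after their values were seen), for which no divisor shared by both libraries was found. For HLA-L the number was 3 in ROCK2 KD and 2 in Scr shRNA, and a common multiple was not tried. The smallest such divisor was 8 for TAP2, PSMB8 and PSMB9, 5 for TAPBP and 4 for TAP1, for which 8 was also possible, and 1 for the 5 genes outside the MHC. Of the 201 MHC genes, 134 had a divisor above 1, and it was 7 or 8 for 83 of them. How replicate 3 came to differ in this way is not given in the sources used here. The hg19 assembly holds alternate versions of the MHC beside chromosome 6 itself, and whether reads or FPKM were spread over them was not tested. Each result on an MHC member is therefore given as deposited, and also with the replicate 3 values multiplied by the divisor or without replicate 3.

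**Figure D1:**
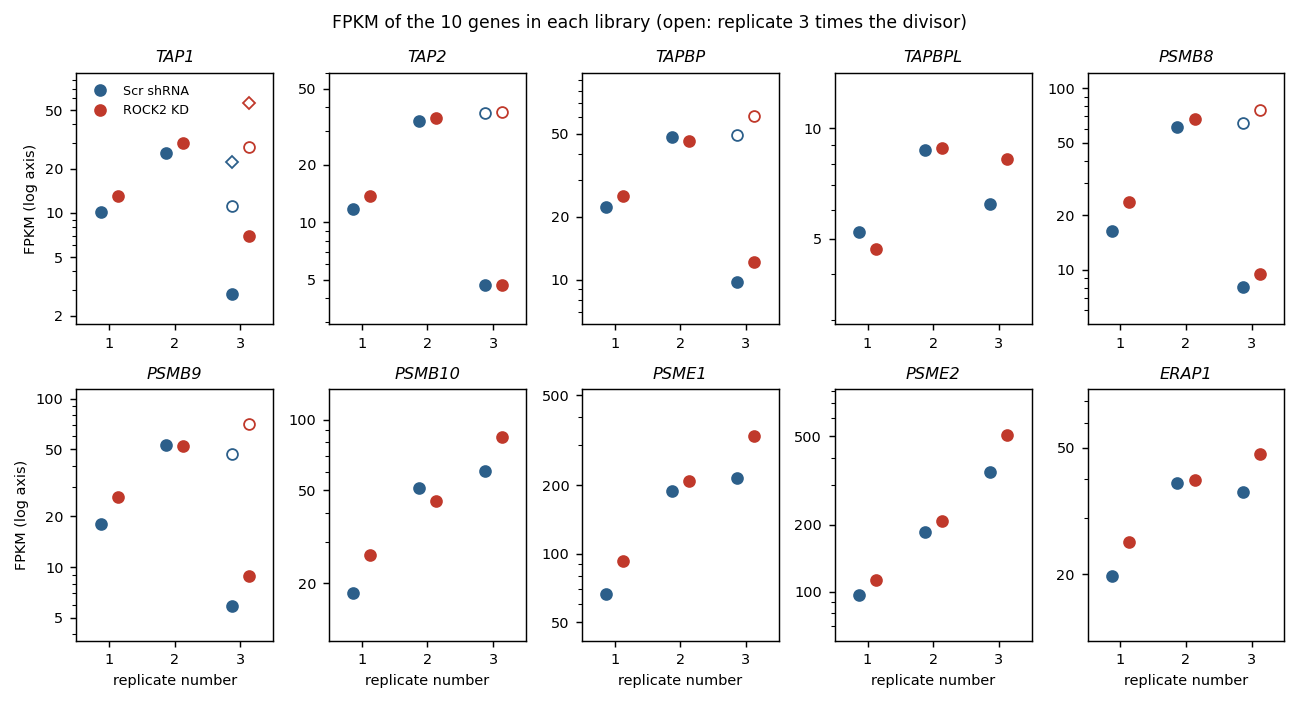
FPKM (log axis) of the 10 genes by replicate number in Scr shRNA (blue) and ROCK2 KD (red), 1 point per library. Open circles show the replicate 3 values multiplied by the smallest divisor and open diamonds, for TAP1, by 8. The 5 MHC genes drop in replicate 3 as deposited, whereas PSMB10, PSME1 and PSME2 are highest there.

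The 10 genes were all expressed, and all passed the filter of at least 1 FPKM in at least 3 libraries, as did 10526 of the 20667 symbols. Between ROCK2 KD and Scr shRNA, none of the 10 passed an adjusted p of 0.05 in limma fitted with the replicate numbers as pairs, and neither did any other gene (0 of 10526, 0.0%, lowest adjusted p 0.7416). At an unadjusted p under 0.05, 577 genes were counted (5.48%), 333 higher (3.16%) and 244 lower (2.32%) in ROCK2 KD. All 10 fitted differences were above 0, between 0.07 and 0.52 on the log2 scale with a median of 0.27, while 48.8% of all genes tested were above 0 and their median was 0.00. TAP1, PSMB8, PSMB9, PSME1 and PSME2 had an unadjusted p under 0.05, and TAP1, PSMB8, PSME1, PSME2 and ERAP1 were higher in all 3 pairs, as were 12.9% of all genes tested. The values of the groups did not overlap, after scaling, for ERAP1 among the 10, while 1.31% of all genes tested were so separated in this direction and 0.893% in the other. In bulk RNA, fewer cells expressing a gene and less RNA per cell cannot be told apart.

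TAP1, a subunit of the transporter, was the member with the largest difference. Its FPKM was 13.1, 29.6 and 6.96 in ROCK2 KD replicates 1, 2 and 3, and 10.2, 25.7 and 2.79 in Scr shRNA. Each ROCK2 KD library was above the Scr shRNA library of its number, and the groups overlapped because the replicates differed more than the conditions. On the log2(scaled FPKM + 1) scale, which understates changes of low genes, the pair differences were 0.34, 0.22 and 1.0, and the fitted log2 fold change was 0.52 (SE 0.16, 95% interval 0.13 to 0.91, adjusted p = 0.8388). With replicate 3 multiplied by 4, TAP1 stood at 27.8 FPKM in ROCK2 KD and 11.2 FPKM in Scr shRNA, and with 8 at 55.7 and 22.3 FPKM. The log2 fold change was then 0.58 with the factor of 4 (adjusted p = 0.8499) and 0.60 with 8, and without replicate 3 it fell to 0.28 (adjusted p = 0.9999, in a fit that called 0.0368% of all genes). The size for TAP1 thus rested largely on replicate 3, also the pair in which ROCK2 differed most (-1.53 on the same scale), and the link between these values was not tested.

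TAP2, its partner in the heterodimer, stood at 13.8, 34.99 and 4.70 FPKM in ROCK2 KD and 11.8, 33.8 and 4.66 FPKM in Scr shRNA. The libraries of each pair lay close together. Its log2 fold change was 0.09 (SE 0.11, 95% interval -0.17 to 0.34, adjusted p = 0.9889), with pair differences of 0.21, 0.07 and -0.03, and multiplying replicate 3 gave 37.6 and 37.3 FPKM and a log2 fold change of 0.08. Without replicate 1 it was 0.02, and without replicate 3 it was 0.14.

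Tapasin (TAPBP) was at 25.1, 46.0 and 12.1 FPKM in ROCK2 KD and 22.2, 48.2 and 9.80 FPKM in Scr shRNA. It was higher in 2 of 3 pairs, and the log2 fold change was 0.12 (SE 0.11, 95% interval -0.13 to 0.37, adjusted p = 0.9777). Multiplied by 5, its replicate 3 values were 60.7 and 49.0 FPKM and the log2 fold change was 0.13, while it was 0.06 without replicate 3 and 0.20 without replicate 2. TAPBPL, the least abundant of the 10 in replicates 1 and 2, was at 4.67, 8.82 and 8.22 FPKM in ROCK2 KD and 5.20, 8.71 and 6.20 FPKM in Scr shRNA. The first pair went down and the others up, for a log2 fold change of 0.07 (SE 0.13, 95% interval -0.23 to 0.37, adjusted p = 0.9962), which became -0.05 without replicate 3 and 0.17 without replicate 1.

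Of the immunoproteasome subunits, PSMB8 (β5i) was at 23.7, 68.1 and 9.45 FPKM in ROCK2 KD and 16.4, 61.5 and 8.03 FPKM in Scr shRNA. It was higher in each ROCK2 KD library than in its Scr shRNA partner, most in replicate 1. The log2 fold change was 0.28 (SE 0.11, 95% interval 0.01 to 0.55, adjusted p = 0.9015), with pair differences of 0.51, 0.17 and 0.17, and it was 0.16 without replicate 1 and 0.34 without replicate 3. Multiplied by 8, its replicate 3 values were 75.6 and 64.3 FPKM, above those of replicate 2, and the log2 fold change was 0.29.

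PSMB9 (β1i) was at 26.0, 52.0 and 8.86 FPKM in ROCK2 KD and 18.0, 53.3 and 5.88 FPKM in Scr shRNA. It was higher in replicates 1 and 3 and nearly level in replicate 2, with pair differences of 0.51, -0.01 and 0.47 and a log2 fold change of 0.33 (SE 0.13, 95% interval 0.01 to 0.64, adjusted p = 0.9015). Multiplication put replicate 3 at 70.9 and 47.0 FPKM and the log2 fold change at 0.35, and without replicate 3 the log2 fold change was 0.25.

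PSMB10 (β2i), the subunit encoded outside the MHC, was at 26.5, 45.1 and 84.2 FPKM in ROCK2 KD and 18.2, 50.9 and 60.6 FPKM in Scr shRNA. It was higher in replicates 1 and 3 and lower in replicate 2, with a log2 fold change of 0.27 (SE 0.15, 95% interval -0.08 to 0.61, adjusted p = 0.9577), which was 0.13 without replicate 1 and 0.47 without replicate 2. All 3 catalytic subunits had their lowest pair difference in replicate 2, which PSMB8 matched in replicate 3.

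The PA28 subunits were the most abundant of the 10 genes in every library. PSME1 (PA28α) was at 92.7, 209.8 and 331 FPKM in ROCK2 KD and 66.3, 189 and 215 FPKM in Scr shRNA, higher in every pair. Its log2 fold change of 0.41 had the smallest p of the 10 (SE 0.11, 95% interval 0.15 to 0.67, adjusted p = 0.7721), with pair differences of 0.48, 0.18 and 0.58. Correcting the replicates with ComBat and fitting no block gave a log2 fold change of 0.31 and an adjusted p of 0.04215 for PSME1, the only call among the 10, in a fit that called 164 genes higher (1.56%) and 135 lower (1.28%). That fit does not count the correction in its degrees of freedom. PSME2 (PA28β) was at 113, 207 and 506 FPKM in ROCK2 KD and 96.7, 186 and 346 FPKM in Scr shRNA, also higher in every pair, with a log2 fold change of 0.30 (SE 0.11, 95% interval 0.05 to 0.55, adjusted p = 0.857), which was 0.20 without replicate 3.

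ERAP1 was at 25.2, 39.7 and 47.7 FPKM in ROCK2 KD and 19.8, 38.6 and 36.3 FPKM in Scr shRNA. After scaling, the ROCK2 KD libraries lay at 36.9, 32.7 and 39.3 and the Scr shRNA libraries at 29.0, 31.2 and 30.9, so that every ROCK2 KD library was above every Scr shRNA library. The log2 fold change was 0.25 (SE 0.11, 95% interval -0.01 to 0.50, adjusted p = 0.9015), with pair differences of 0.34, 0.06 and 0.34.

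**Figure D2:**
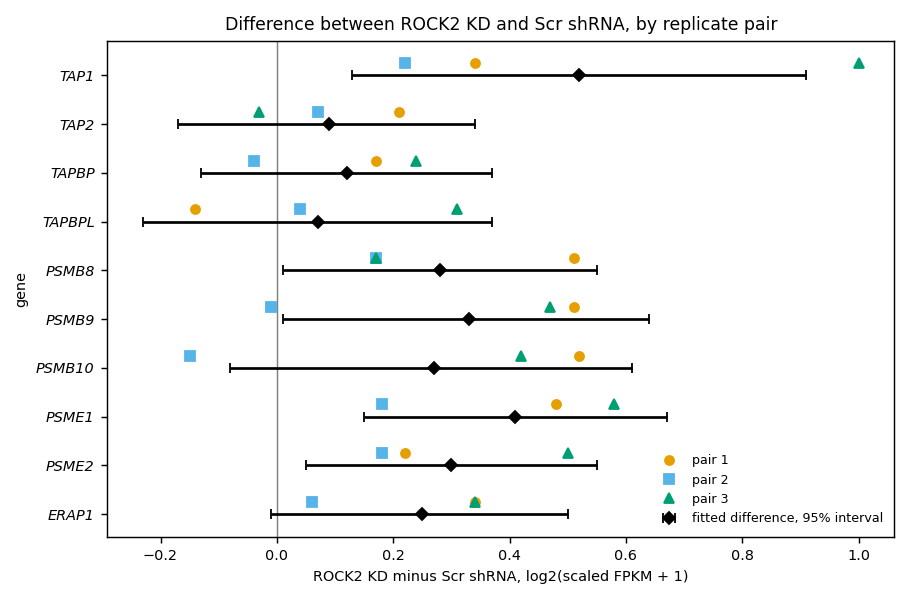
ROCK2 KD minus Scr shRNA on the log2(scaled FPKM + 1) scale for each gene. Diamonds and bars are the fitted difference and its 95% interval, and the small symbols above them the 3 replicate pairs. The diamonds run from 0.07 for TAPBPL to 0.52 for TAP1, where the pair of replicate 3 lies at 1.0.

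Ratios of subunits within a library need no scaling between libraries and show how the immunoproteasome subunits stood to the constitutive subunits they replace. PSMB8/PSMB5 was 0.496, 0.397 and 0.0472 in ROCK2 KD and 0.302, 0.351 and 0.0461 in Scr shRNA, and 0.378 and 0.369 in replicate 3 after multiplication by 8. The ratio was higher in all 3 pairs, by 0.72, 0.18 and 0.03 on the log2 scale (mean 0.31, SD 0.36, n = 3, two-sided exact sign-flip permutation p = 0.25, adjusted over the 6 ratios 0.6). With 3 pairs this test cannot give a p below 0.25. The mean was 0.11 without replicate 1. PSMB5 itself had a log2 fold change of -0.01, PSMB6 of 0.08 and PSMB7 of 0.00.

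The PSMB9/PSMB6 ratio was 0.375, 0.206 and 0.0364 in ROCK2 KD and 0.237, 0.240 and 0.0281 in Scr shRNA, with 0.291 and 0.225 in replicate 3 after multiplication. It was higher in 2 of 3 pairs (mean log2 difference 0.27, SD 0.45, n = 3, exact permutation p = 0.5), and the mean was 0.08 without replicate 1 and 0.52 without replicate 2. PSMB10/PSMB7 was 0.522, 0.176 and 0.418 in ROCK2 KD and 0.300, 0.239 and 0.303 in Scr shRNA, again higher in replicates 1 and 3 and lower in replicate 2 (mean log2 difference 0.27, SD 0.64, n = 3, exact permutation p = 0.5). Its mean fell to 0.01 without replicate 1 and was 0.63 without replicate 2. In all libraries each immunoproteasome subunit was below its constitutive counterpart, also with the multiplied values.

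TAP1/TAP2 was 0.951, 0.847 and 1.48 in ROCK2 KD and 0.866, 0.760 and 0.598 in Scr shRNA, higher in all 3 pairs (mean log2 difference 0.53, SD 0.67, n = 3, exact permutation p = 0.25). The pair differences were 0.14, 0.16 and 1.31, and without replicate 3 the mean was 0.15. If the smallest divisors were the true ones, the ratio in replicate 3 would be 0.740 in ROCK2 KD and 0.299 in Scr shRNA, with the same difference between them. PSME1/PSME2 differed by a mean log2 of 0.11 (SD 0.14, n = 3, exact permutation p = 0.5), or 0.04 without replicate 1, and TAPBPL/TAPBP by -0.05 (SD 0.24, n = 3, exact permutation p = 1.0). TAPBPL/TAPBP was 0.677 and 0.633 in the replicate 3 libraries against 0.181 to 0.234 in the others, and 0.135 and 0.127 after TAPBP was multiplied by 5.

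**Figure D3:**
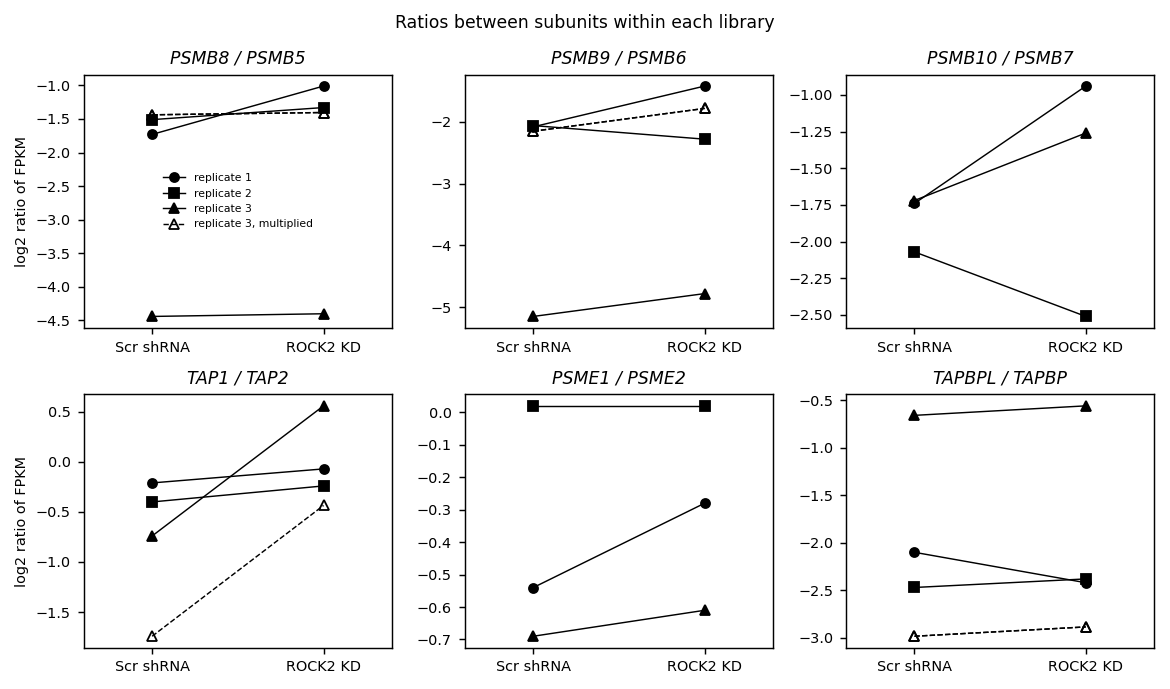
Log2 ratios of FPKM between subunits within each library, with a line joining the Scr shRNA and ROCK2 KD libraries of a replicate number. Broken lines with open triangles give replicate 3 with MHC genes multiplied by their divisor (for TAP1, by 4). PSMB8/PSMB5 and TAP1/TAP2 are higher in ROCK2 KD in all 3 pairs, and the other ratios are not.

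The replicate 3 values were then compared with the mean of replicates 1 and 2 across all genes, with the condition in the model. Of 10526 genes, 1243 (11.8%) were lower and 1235 (11.7%) higher in replicate 3 at an adjusted p under 0.05, and the median difference was 0.01. The error in this fit comes from how far the ROCK2 KD minus Scr shRNA difference varied between replicate numbers. It leaves out the spread of levels between replicate numbers, so these p-values, here and below, cannot show that replicate 3 departed beyond it. All 5 MHC members were lower, with log2 differences of -2.10 for TAP1 (SE 0.17, adjusted p = 0.0004959), -2.28 for TAP2, -1.88 for TAPBP, -2.27 for PSMB8 and -2.42 for PSMB9. Of the 5 members elsewhere, 0 were lower and PSMB10 (0.74), PSME1 (0.71) and PSME2 (1.16) were higher, while TAPBPL (-0.23) and ERAP1 (0.11) were not called in either direction. Of 125 MHC genes tested, 114 were lower and 1 higher, with a median of -2.10. The low replicate 3 values of the MHC genes were known beforehand and prompted this comparison. Its calls for them restate those values and are no independent test.

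Multiplied by the divisor, the MHC members were no longer low in replicate 3, with the sign of TAP1 left undecided. The log2 difference was 0.43 for TAP2 (adjusted p = 0.0328) and 0.56 for PSMB8 (adjusted p = 0.01919), both now called higher, as were 11.4% of all genes tested in that fit (11.2% were lower), and 0.31 for TAPBP (adjusted p = 0.08708) and 0.38 for PSMB9 (adjusted p = 0.09829). For TAP1 it was -0.38 with a factor of 4 (adjusted p = 0.2113) and 0.57 with a factor of 8 (adjusted p = 0.08947, in a fit that called 11.2% of genes higher and 11.1% lower). Among the 92 tested MHC genes with a divisor above 1, the median moved from -2.25 to -0.05 with the smallest and to 0.03 with the largest divisor, and 92 lower calls became 23 and 9. Another 33 tested MHC genes had a divisor of 1, of which 22 were lower in replicate 3, with a median of -0.71. For these the digits do not tell whether a value was averaged.

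**Figure D4:**
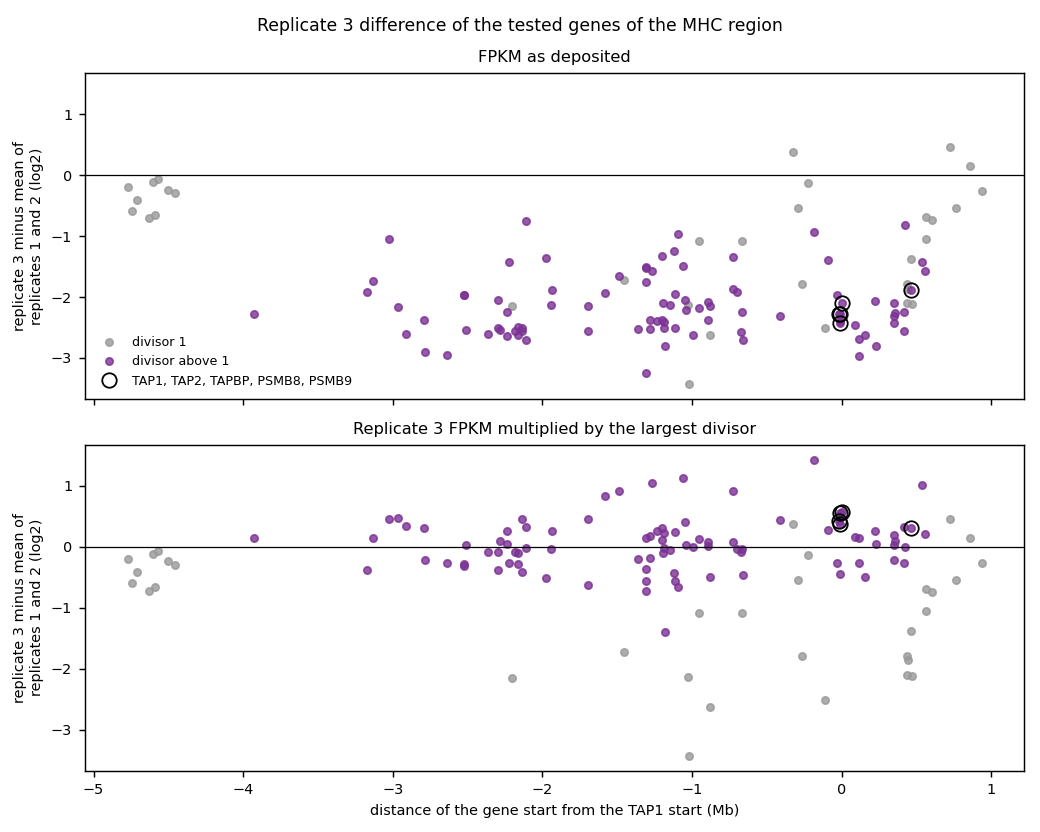
Replicate 3 minus the mean of replicates 1 and 2 (log2) for the 125 tested MHC genes against the distance of each gene start from that of TAP1 in Mb, as deposited (top) and with replicate 3 multiplied by the largest divisor (bottom). Purple points have a divisor above 1 and grey points a divisor of 1, and circles mark TAP1, TAP2, TAPBP, PSMB8 and PSMB9. The circled genes lie between -2.42 and -1.88 in the top panel and between 0.31 and 0.57 in the bottom panel.

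The rest of the pathway was read from 46 listed genes, of which 45 passed the filter (ERAP2 did not). None had an adjusted p under 0.05, 33 had a log2 fold change above 0 and 12 below, with a median of 0.09. Counting genes with an unadjusted p under 0.05 gave 7 higher and 0 lower, against 3.16% and 2.32% of all genes tested, and 15 were higher and 1 lower in all 3 pairs, against 12.9% and 12.1%. B2M, the light chain encoded outside the MHC, was at 616, 1028 and 2105 FPKM in ROCK2 KD and 485, 906 and 939 FPKM in Scr shRNA, with a log2 fold change of 0.56 (SE 0.18, adjusted p = 0.8388). Its largest pair difference, 1.12, was in replicate 3.

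Of the heavy chains, HLA-B had a log2 fold change of 0.49, HLA-E of 0.42 and HLA-F, the lowest of the list, of -0.02. These genes carried divisors of 6 or 7 in replicate 3 and fell there like TAP1. HLA-B, for example, was at 166, 222 and 101.9 FPKM in ROCK2 KD and 117, 220.4 and 51.3 FPKM in Scr shRNA. Multiplying left HLA-B at 0.49 and moved HLA-E to 0.46 and HLA-F to 0.07.

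Of the 14 regulators, 10 were above and 4 below 0, and IRF1 and CIITA were among those with an unadjusted p under 0.05. IRF1, a transcription factor induced by interferon, was at 5.99, 10.0 and 13.05 FPKM against 4.54, 9.23 and 6.34 FPKM, with a log2 fold change of 0.45 (SE 0.16, adjusted p = 0.857). CIITA, the class II transactivator, had a log2 fold change of 0.43 and its largest pair difference, 0.69, in replicate 1, and NLRC5, the class I transactivator, was at 1.51, 2.55 and 3.19 FPKM against 1.13, 2.51 and 1.84 FPKM, with a log2 fold change of 0.27 (adjusted p = 0.9354). SPI1 was the lowest of this list at -0.23.

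The other parts of the machinery lay between -0.04 and 0.22, a range that also held TAP2 (0.09), TAPBP (0.12) and TAPBPL (0.07). The chaperones of the loading complex ran from -0.02 for CALR to 0.12 for CANX, the other trimming peptidases from -0.01 for TPP2 to 0.22 for LNPEP, the other activators from -0.01 for PSMF1 to 0.14 for PSME4, and the 14 other core proteasome subunits and assembly factors from -0.04 for PSMG2 to 0.15 for PSMA3. In these 4 lists 0 genes had an unadjusted p under 0.05 in either direction. The comparison of these lists with the 10 genes is a description, without a test.

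**Figure D5:**
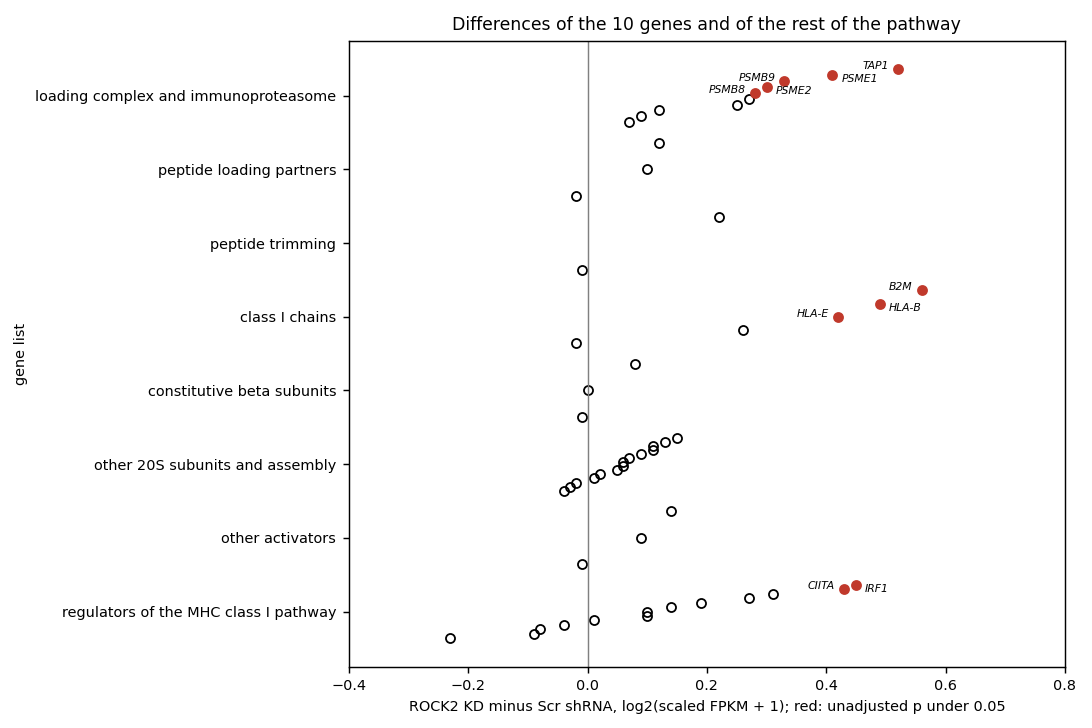
Fitted ROCK2 KD minus Scr shRNA differences on the log2(scaled FPKM + 1) scale, 1 circle per gene reported here, by gene list. Filled red circles have an unadjusted p under 0.05, and none has an adjusted p under 0.05. Circles of the constitutive subunits and other core subunits lie between -0.04 and 0.15, and B2M is farthest to the right at 0.56.

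The genes whose values over the 6 libraries were most like those of TAP1 depended on the replicate 3 values. As deposited, the 5 highest Pearson correlations were those of PPIP5K1 (0.989), NUDT4P1 (0.985), PSMB9 (0.984), HLA-DMA (0.982) and NSF (0.980), and PSMB8, TAPBP and TAP2 were at 0.961, 0.972 and 0.957. With the smallest divisors multiplied, the 5 were FMNL1 (0.976), FLOT2 (0.971), KIAA0141 (0.945), PIK3C3 (0.945) and LOC101927631 (0.943). PSMB9 was then at 0.446, PSMB8 at 0.217, TAPBP at 0.163 and TAP2 at 0.032. These values rest on a divisor of 4 for TAP1, beside 8 for TAP2, PSMB8 and PSMB9. The likeness with TAP1 multiplied by 8, which was also possible, was not computed and could differ. These are descriptions over 6 libraries that share the replicate effect.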

How the data were processed

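RNA-seq values of 6 U2932 libraries were used, 3 ROCK2 KD and 3 Scr shRNA, with groups and replicate numbers from the labels. The authors prepared Nextera libraries, aligned 50-bp paired reads to hg19 with STAR 2.4.2 and computed the deposited FPKM with Cufflinks 2.2.1. FPKM carry no read counts, so count tests were not run. Libraries were brought to one scale with a trimmed mean of the log ratios (factors 0.683 to 1.236, trimming 0.3 and 0.05), and genes reaching 1 FPKM in 3 or more libraries were fitted on log2(scaled FPKM + 1), a pseudocount of 1, using limma 3.58.1 (R 4.3.3), in a model of condition and replicate block with a variance trend and Benjamini-Hochberg adjustment over all genes tested. The pairing comes from the replicate numbers of the labels, and within each number the departures from the group mean were correlated (r = 0.848, 0.785 and 0.736 across genes). Ratios were tested with exact sign-flip permutations. Divisors were sought from 1 to 10 with a relative tolerance of 1e-11, and multiplication, up to 8, was added after seeing the data. ComBat was written out in R. Positions are from GENCODE 44 on GRCh37, found for 93.6% of symbols, by older symbol where needed. Promoters are from RefSeq, and all 10 genes matched. Fits were tested on simulated data.

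The genes and lists were chosen with earlier results of these data known. Named beside the 10 genes were, in each pathway list, the genes with the largest difference in each direction and any with an unadjusted p under 0.05, the constitutive subunits, NLRC5, IRF1, B2M, ROCK1, ROCK2 and the 5 genes most like TAP1. Marker genes come from a list of cell-type markers. Alternatives covered the block, ComBat, pseudocount, filters, scaling, variance trend, each replicate left out and the divisors. Some genes of these lists enter the counts and are not reported here by name. Protein sequences were not used here. Tables were handled in Python 3.11.15 with pandas 2.3.3, numpy 2.4.6 and scipy 1.17.1, and plots drawn with matplotlib 3.10.9.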

Additional observations from a re-analysis of the deposited data

How the results depend on the processing

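The 10 genes were higher in ROCK2 KD in every alternative except without replicate 3, where TAPBPL was at -0.05 (0.17 without replicate 1) and 9 were higher. The block was checked by leaving it out: with no replicate block 0 genes passed over all genes, 0 of the 10 passed, and the SE of TAP1 rose from 0.16 to 0.80. ComBat on the replicate number gave 299 calls over all genes and 1 of the 10, and leaving out a replicate gave 0 to 59 calls (59 without replicate 1, 0 without replicate 2 and 4 without replicate 3), none of them among the 10. In the paired ratios, TAPBPL/TAPBP turned from -0.05 to 0.09 without replicate 1, in a range of -0.12 to 0.09, and over the same alternatives PSMB8/PSMB5 ran from 0.11 to 0.45, PSMB9/PSMB6 from 0.08 to 0.52, PSMB10/PSMB7 from 0.01 to 0.63, TAP1/TAP2 from 0.15 to 0.73 and PSME1/PSME2 from 0.04 to 0.17.

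The replicate 3 comparison called 5517 genes with FPKM left unscaled, which moved the median of all genes to 0.34 and TAPBPL to 0.10, and between 1271 (without replicate 1) and 4835 (without replicate 2) when a replicate was left out. Unscaled, ERAP1 was called higher (0.48, adjusted p = 0.01418). PSMB10 lost its call without the filter (adjusted p = 0.07501) and PSME1 without replicate 1 (adjusted p = 0.06849). With multiplication, chosen after seeing the data, lower MHC genes numbered 45 with the smallest and 31 with the largest divisors, and the differences turned to 0.43 for TAP2, 0.31 for TAPBP, 0.56 for PSMB8, 0.38 for PSMB9 and, with the largest divisor, 0.57 for TAP1. The cause of the other changes was not tested. FPKM hold no read numbers, so no counting error is set beside the values.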
